A study of Homo sapiens with 6 samples.

Results

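The EGR, NR4A and IER immediate-early genes were followed in MM.1S cells, a human multiple myeloma line, after knockdown of the histone H3 lysine 27 demethylase gene KDM6B. The members were taken by symbol: EGR1, EGR2, EGR3, NR4A1, NR4A2, NR4A3, IER2, IER3 and IER5, and all 9 had a row among the 56637 symbols of each count table. Both groups carried a lentiviral short hairpin RNA (shRNA) and went through puromycin selection. The control hairpin was aimed at luciferase (shLuc, 3 libraries) and the other at KDM6B (shKDM6B, 3 libraries), with a single line and, as far as the labels say, a single KDM6B hairpin. Effects of KDM6B loss and other effects of that hairpin sequence therefore cannot be told apart. Nothing in the labels says that the triplicates were separate cultures, so the spread behind each p-value may be a technical one.

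Immediate-early genes are transcribed within minutes of a stimulus, without the need for new protein synthesis, and their short-lived transcripts fall back quickly. A main route to them runs through mitogen-activated kinase cascades, which lead to phosphorylation of ternary complex factors such as ELK1 bound together with serum response factor (SRF) at CArG boxes, and a further route runs through CREB at cyclic AMP response elements (CRE). EGR1, EGR2 and EGR3 are zinc finger transcription factors that bind GC-rich sites. NR4A1, NR4A2 and NR4A3 are orphan nuclear receptors, and in lymphocytes NR4A1 is known as a gene switched on by antigen receptor signalling. The IER genes share the way they are induced more than their function: IER2 is a nuclear protein, IER3 modulates cell survival, and IER5 is known as a regulator of the heat shock factor HSF1.

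The promoters of EGR1 and EGR2, the members with the largest changes, are shown with those of NR4A1 and IER2, whose changes were far smaller. Each is the reference sequence from RefSeq (GRCh38.p14), not read from these cells, and covers 250 bases before to 50 bases after the annotated start, written 5′ to 3′ along the gene. Capitals mark matches to the CArG box (CC, then 6 bases of A or T, then GG) and to the CRE core motif TGACG, on either strand. The windows are chr5:138465229-138465528 (plus strand) for EGR1 and chr10:62816317-62816616 (minus strand) for EGR2. Those of NR4A1 and IER2 are chr12:52037465-52037764 and chr19:13150161-13150460, both on the plus strand.
EGR1: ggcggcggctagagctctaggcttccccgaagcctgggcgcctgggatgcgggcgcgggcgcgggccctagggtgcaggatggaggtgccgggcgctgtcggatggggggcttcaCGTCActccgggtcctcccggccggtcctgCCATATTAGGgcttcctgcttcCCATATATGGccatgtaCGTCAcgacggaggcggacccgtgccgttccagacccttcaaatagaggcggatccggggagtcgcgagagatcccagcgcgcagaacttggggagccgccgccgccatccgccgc
EGR2: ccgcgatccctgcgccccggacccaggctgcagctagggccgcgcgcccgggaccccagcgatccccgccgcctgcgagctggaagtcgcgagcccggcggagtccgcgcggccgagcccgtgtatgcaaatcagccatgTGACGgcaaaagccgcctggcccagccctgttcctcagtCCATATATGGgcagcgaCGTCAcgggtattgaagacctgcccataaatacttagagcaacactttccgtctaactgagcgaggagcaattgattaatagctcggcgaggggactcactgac
NR4A1: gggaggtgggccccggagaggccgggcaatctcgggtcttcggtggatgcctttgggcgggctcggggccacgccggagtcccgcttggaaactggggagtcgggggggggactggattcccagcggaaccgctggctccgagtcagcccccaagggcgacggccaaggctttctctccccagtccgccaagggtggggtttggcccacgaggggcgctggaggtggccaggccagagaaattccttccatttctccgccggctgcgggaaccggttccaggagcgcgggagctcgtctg
IER2: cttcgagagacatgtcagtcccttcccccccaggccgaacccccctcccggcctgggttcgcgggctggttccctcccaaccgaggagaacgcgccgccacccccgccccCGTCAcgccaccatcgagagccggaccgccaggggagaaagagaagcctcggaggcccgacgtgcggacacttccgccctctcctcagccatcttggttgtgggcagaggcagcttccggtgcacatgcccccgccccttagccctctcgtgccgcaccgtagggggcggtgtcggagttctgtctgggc

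EGR1 held 2 CArG boxes, with first bases at -105 and -83 from the start, and 2 CRE core motifs at -135 and -66. EGR2 held 1 CArG box at -71 between CRE core motifs at -110 and -54. This is 1 of the 3 EGR2 starts in the table, printed because it holds the matches, and the other starts had 0. NR4A1, with 2 starts listed, had 0 matches to either motif at both, and IER2 had 1 CRE core motif at -140. Of the other members searched, IER5 had 0 matches and NR4A3 had 4 CRE core motifs and 0 CArG boxes, so that EGR1 and EGR2 were the 2 of 6 searched members with a CArG box. Among all 35114 promoters of the same length, 1.29% held a CArG box and 24.6% a CRE core motif. The whole CRE (TGACGTCA, which contains the core motif and is held by 1.85%), the TATA box letters TATAAA (11.5%), the EGR sites GCGTGGGCG (0.795%) and GCGGGGGCG (5.07%), the NBRE AAAGGTCA bound by NR4A proteins (1.22%) and the AP-1 site TGACTCA (4.95%) had 0 matches in the members' windows. The ETS site CCGGAAG (10.3%) had 1, in IER2. A match describes letters only, and which start MM.1S cells use was not tested.

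The 6 libraries held 7338393 to 9848351 counts. For KDM6B, the targeted gene, the shLuc libraries held raw counts of 409, 505 and 437 and the shKDM6B libraries 239, 270 and 348 (always in the order of replicates 1 to 3). After scaling this was 60.6% of the control level. All 8 plasma cell markers searched had counts. Levels are in CPM, counts relative to the library total, scaled between libraries by TMM. The summed level was 2441 to 2683 CPM in shLuc and 2316 to 2624 CPM in shKDM6B. At an adjusted p under 0.05 by edgeR, 1 of the 8 was higher, PRDM1 (111% of its shLuc mean). CD38 (73.5%) and TNFRSF17 (77.7%) were lower and 5 did not pass, where 20.1% of all tested genes were higher and 18.9% lower. Keratinocyte markers appeared unevenly: 7 of 8 had counts and KRT1 was at 0. Their summed level was 51.6 to 63.3 CPM in shLuc and 44.0 to 86.4 CPM in shKDM6B, most of it KRT10. For the defining basal keratin KRT5 the shLuc libraries held 28, 4 and 0 counts and the shKDM6B libraries 53, 110 and 0. Summed T cell markers (CD3G at 0) lay at 7.69 to 9.94 CPM in shLuc and 4.78 to 6.36 CPM in shKDM6B. Most of this was CD3E, and CD3D had 1 count, in shKDM6B replicate 3. Summed erythroid markers (HBA2 at 0) lay at 19.3 to 23.6 CPM in shLuc and 10.4 to 13.02 CPM in shKDM6B. This was HBB, apart from 1 count of HBA1 in shKDM6B replicate 1. Each of these sums thus describes mainly a single gene and does not show that such cells were present. The part of these markers in the members' changes was not tested. In such bulk libraries, fewer cells with a transcript and less of it per cell cannot be told apart. Over all genes, 5405 of 13839 tested (39.1%) passed the threshold, an adjusted p under 0.05 by edgeR, with 2783 higher and 2622 lower in shKDM6B; by DESeq2 1808 were higher and 1586 lower. When thinly covered genes (under 0.03 counts per exon base) set the scaling, 3192 were higher and 1815 lower.

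Among the members, EGR1 and EGR2 fell steeply, NR4A1 fell a little, IER3 rose, NR4A2, IER2 and IER5 did not pass the threshold, and EGR3 and NR4A3 had too few counts to be tested. Summed CPM of the 3 EGR genes went from 11.8 ± 2.9 in shLuc to 1.26 ± 0.56 in shKDM6B (SD, n = 3 each), 10.7% of the control. The NR4A sum went from 19.6 ± 0.9 to 15.7 ± 1.4 CPM (SD, n = 3 each), 80.0% of the control, and the IER sum from 234 ± 21 to 228 ± 11 CPM (SD, n = 3 each). Of the 9 members, 7 passed the filter on low counts; 3 of these were lower and 1 higher, where 18.9% of all tested genes were lower and 20.1% higher. The median log2 fold change of the 7 was -0.241, beside -0.005 over all tested genes. EGR1 and EGR2 passed the filter through their shLuc libraries alone, so these counts describe the members and carry no test of the set.

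**Figure D1:**
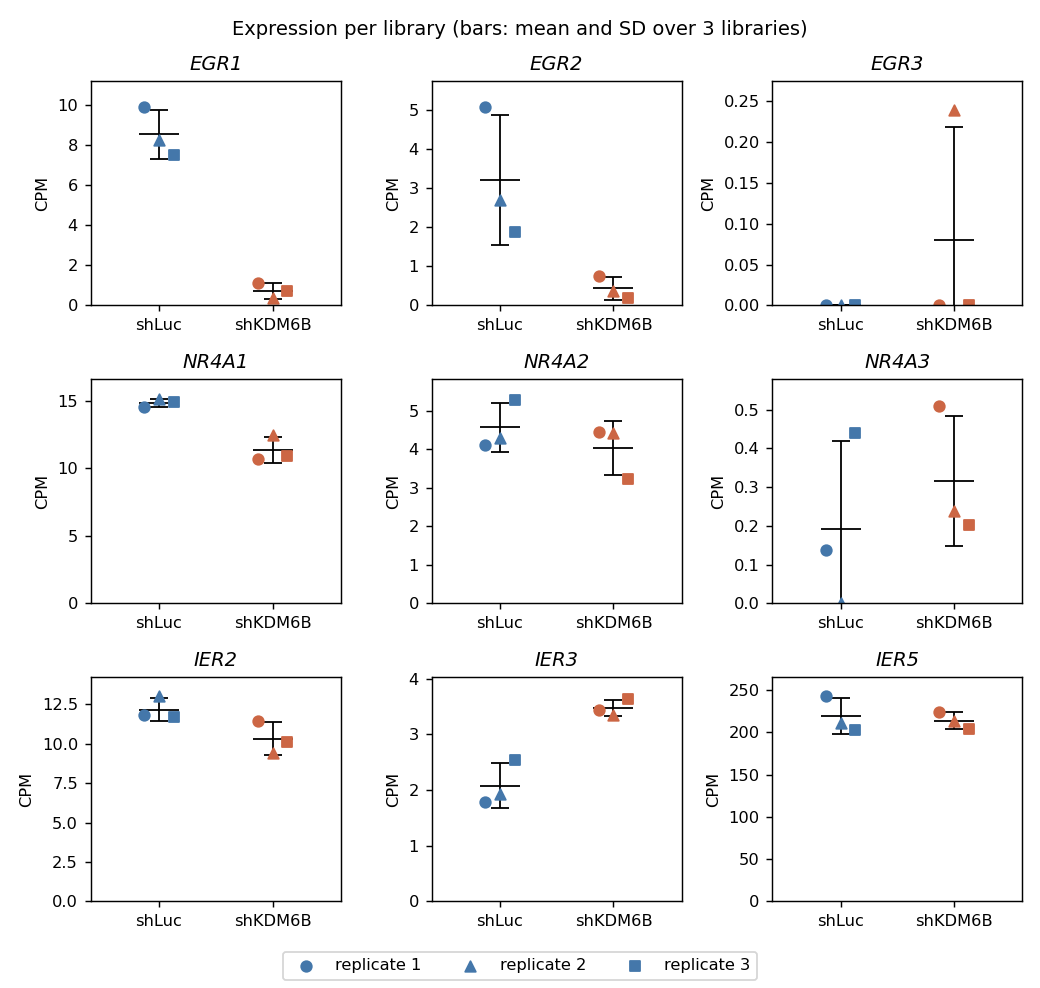
Level of each of the 9 members in every library (CPM, linear axes from 0, a scale of its own in each panel), with the mean and SD over 3 libraries as bars. EGR1 and EGR2 lie far lower in shKDM6B, NR4A1 and IER2 a little lower, IER3 higher, and the libraries of the 2 groups overlap for EGR3, NR4A2, NR4A3 and IER5.

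EGR1, a transcription factor that relays growth factor and stress signals, was counted 72, 73 and 68 times in shLuc and 9, 3 and 7 times in shKDM6B. In CPM these were 9.89, 8.24 and 7.49 against 1.15, 0.359 and 0.707. Every shKDM6B library was far below every shLuc library. EGR1 thus stood at 8.63% of its shLuc mean (edgeR log2 fold change -3.51, SE 0.27, adjusted p = 8.67e-10), or 11.4-fold lower. It had the 6th largest fall of the 13839 tested genes, and 2.11% of tested genes were called and at least 2-fold lower. Its 19 counts over the 3 shKDM6B libraries leave the size less certain than the direction: leaving out 1 library moved the log2 fold change between -3.92 and -3.21.

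EGR2, best known as a factor of nerve myelination and of lymphocyte restraint, had raw counts of 37, 24 and 17 in shLuc and 6, 3 and 2 in shKDM6B. Its CPM was 5.08, 2.71 and 1.87 in shLuc and 0.764, 0.359 and 0.202 in shKDM6B. The groups did not overlap, although the shLuc libraries were spread more widely than for EGR1, with replicate 1 the highest for both genes. EGR2 stood at 13.7% of its shLuc mean (log2 fold change -2.84, SE 0.46, adjusted p = 3.38e-05 by edgeR), the 17th largest fall of all tested genes. Without shKDM6B replicate 1 the log2 fold change was -3.44, that is 10.8-fold in place of 7.16-fold. EGR3, the close relative that feeds back on EGR1 targets in lymphocytes, had 0 counts in shLuc, which allows up to 0.119 CPM over the group, and 2 counts in shKDM6B, all in replicate 2. It was not detectable in most libraries at this depth and was not tested.

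EGR1 and EGR2 were also lower when libraries with few KRT5 counts were compared. For this, the 3 libraries with the most KRT5 (replicate 1 of shLuc, replicates 1 and 2 of shKDM6B) were dropped. The edgeR log2 fold change was then -3.45 for EGR1 and -3.42 for EGR2. The lone shKDM6B library is assumed in that fit to vary like the others, so only the sizes are given. EGR1 had 7 counts in this library, the 1 of 3 shKDM6B libraries with 0 counts of KRT5. The part of the keratinocyte markers in these falls was not tested.

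NR4A1, the member of its family with the highest level here, had raw counts of 106, 134 and 135 in shLuc and 84, 104 and 108 in shKDM6B. In CPM the shLuc libraries lay at 14.6, 15.1 and 14.9, close together, and the shKDM6B libraries at 10.7, 12.4 and 10.9. All 3 shKDM6B values were below all 3 shLuc values, a separation that 48.4% of all tested genes showed in one direction or the other. The level was 76.3% of the shLuc mean (log2 fold change -0.39, SE 0.11, adjusted p = 0.00696 by edgeR). DESeq2 gave the same size with a larger error (-0.39, SE 0.18, adjusted p = 0.101), so the call rests on the test used. The other alternatives with more than 1 library in each group kept it. The 95% intervals of NR4A1 (-0.61 to -0.18) and of EGR1 (-4.04 to -2.98) did not overlap.

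NR4A2, a nuclear receptor best known from dopamine neurons, had 4.12, 4.29 and 5.29 CPM in shLuc and 4.46, 4.42 and 3.23 CPM in shKDM6B. The groups overlapped, and the log2 fold change (-0.205, SE 0.20, edgeR adjusted p = 0.451) has a 95% interval from -0.60 to 0.19. A fall as large as that of NR4A1 lies within this interval. NR4A3, which can stand in for NR4A1 in T cells, had raw counts of 1, 0 and 4 in shLuc and 4, 2 and 2 in shKDM6B. That is 5 and 8 counts per group, too few to be tested.

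IER3 was the member that rose. Its raw counts were 13, 17 and 23 in shLuc and 27, 28 and 36 in shKDM6B, or 1.79, 1.92 and 2.53 CPM against 3.44, 3.35 and 3.63 CPM. The groups did not overlap, and the shKDM6B libraries lay closer to each other than the shLuc libraries. IER3 stood at 167% of its shLuc mean (log2 fold change 0.72, SE 0.23, adjusted p = 0.0168 by edgeR). The call was lost without shLuc replicate 1 (adjusted p = 0.0633), shLuc replicate 2 (adjusted p = 0.0697) or shKDM6B replicate 3 (adjusted p = 0.0537), by DESeq2 (adjusted p = 0.170) and without the 3 keratin libraries (adjusted p = 0.152), while the direction was the same in all 16 alternatives. An antisense gene, IER3-AS1, shares 359 exon bases with IER3 in GENCODE 29, and the library kit does not, as far as its name shows, mark strand, so their reads cannot be told apart. Antisense genes without a name of their own likewise overlap exons of EGR3, NR4A1 and IER2.

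IER2 had raw counts of 86, 115 and 106 in shLuc and 90, 79 and 100 in shKDM6B. Its CPM was 11.8, 12.99 and 11.7 in shLuc and 11.4, 9.44 and 10.1 in shKDM6B. The groups did not overlap, by a narrow margin, but the difference missed the threshold (log2 fold change -0.24, SE 0.12, adjusted p = 0.124 by edgeR). It stayed short of the threshold in every alternative with more than 1 library in each group.

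IER5 was by far the most abundant member, with raw counts of 1775, 1870 and 1846 in shLuc and 1764, 1786 and 2021 in shKDM6B. Scaled, these were 244, 211 and 203 CPM in shLuc and 224, 213 and 204 CPM in shKDM6B, and the groups overlapped. The log2 fold change was -0.034 (SE 0.056, adjusted p = 0.667 by edgeR), with a 95% interval from -0.14 to 0.076. The highest count of IER5 was 1.15 times the lowest, although library totals differed by up to 1.34 times, so in each group its CPM was highest in the library with the smallest total. With 0.440 counts per base of exon it is dense in reads, and the part of this density in its even counts was not tested. Its relative IER5L, by contrast, rose from raw counts of 103, 117 and 94 to 146, 167 and 198 (log2 fold change 0.65, SE 0.11, adjusted p = 6.97e-05 by edgeR). EGR4, the remaining EGR gene, had too few counts to be tested.

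**Figure D2:**
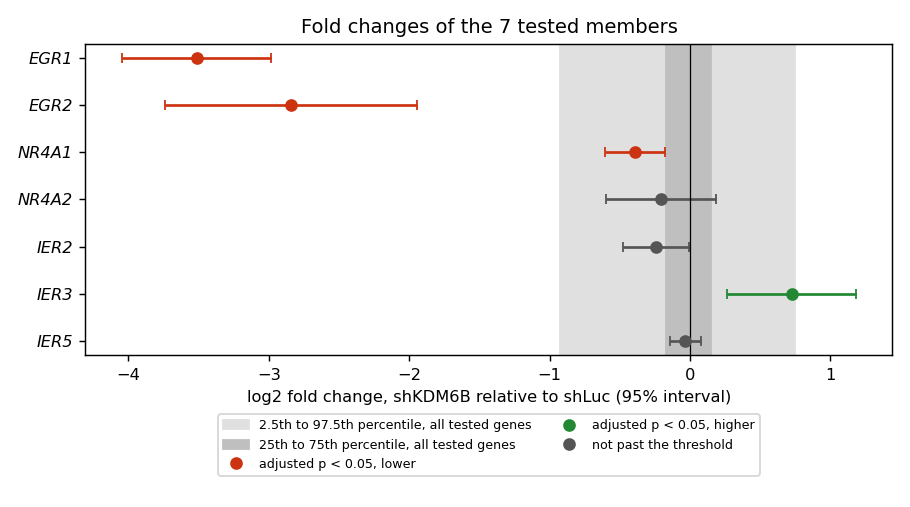
Log2 fold change of the 7 tested members, shKDM6B relative to shLuc, with 95% intervals (horizontal axis); the bands show the middle of the distribution over all 13839 tested genes. EGR1 (-3.51) and EGR2 (-2.84) lie far outside the 2.5th percentile of -0.93, NR4A1, NR4A2, IER2 and IER5 lie within the wider band, and IER3 (0.72) lies near its upper end of 0.75.

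Set against exon length, the order of the members changed between the groups. Levels are given here as CPM per kb of the exons annotated in GENCODE 29, pooled over a gene's isoforms. In shLuc, IER5 led with 52.4 ± 5.1, followed by IER2 (3.96 ± 0.23), EGR1 (2.72 ± 0.39), NR4A1 (2.04 ± 0.04), IER3 (1.53 ± 0.29), NR4A2 (1.15 ± 0.16) and EGR2 (0.873 ± 0.451; SD, n = 3 each). The first 4 of these were separated from their next neighbour in every library, whereas IER3, NR4A2 and EGR2 overlapped with their neighbours. NR4A3 and EGR3 followed at 0.0305 ± 0.0357 and at 0.

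In shKDM6B the order was IER5 (51.1 ± 2.5), IER2 (3.36 ± 0.33), IER3 (2.56 ± 0.11), NR4A1 (1.55 ± 0.13) and NR4A2 (1.02 ± 0.18; CPM per kb, SD, n = 3 each), with no overlap between neighbours. EGR1 came next at 0.235 ± 0.126, below NR4A2 in every library, and EGR2 at 0.120 ± 0.079 overlapped with it. EGR1 thus went from the 3rd place, above NR4A1 and IER3, to the 6th. The place above NR4A1 depends on the pooled exon lengths of 3138 bases for EGR1 and 7295 for NR4A1. In CPM not divided by length, EGR1 (mean 8.54) lay below NR4A1 (14.85) in shLuc as well. NR4A3 (0.0502 ± 0.0266) and EGR3 (0.0164 ± 0.0284) overlapped with their neighbours.

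**Figure D3:**
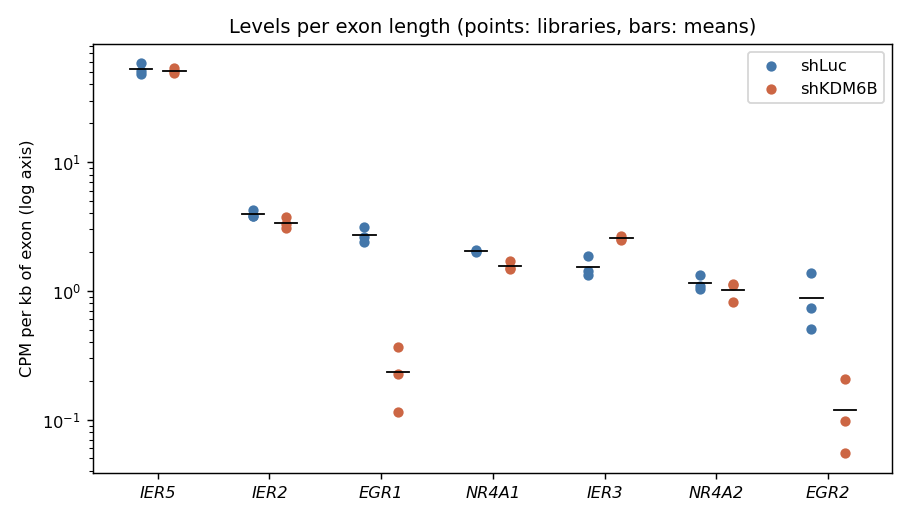
Level of 7 members per kb of exon (CPM per kb, log axis), 1 point for each library and a bar at each group mean, ordered by the shLuc level; EGR3 and NR4A3, with libraries at 0, are left out. EGR1 drops from 2.72 to 0.235 and EGR2 from 0.873 to 0.120, IER3 rises from 1.53 to 2.56, and IER5 stays near 52.

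Genes with the profile most like that of 3 members were found by the root mean square difference of centred log2 CPM over the 6 libraries, among genes with a mean of at least 5 CPM. For EGR1, among the nearest 3 of 11218 genes were the immediate-early gene FOS (difference 0.316, log2 fold change -2.88) and LSAMP, a neural adhesion molecule (0.340, log2 fold change -3.88). EGR1, a starting point by rule, itself had a mean under 5 CPM over the 6 libraries. EGR2 also had too low a mean to be among the genes searched, and NR4A1 came at rank 945 from EGR1.

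For NR4A1 the nearest were the kinase gene VRK1 (0.016), CTC-297N7.8 (0.020) and CEP55, a gene of cell division (0.024), with log2 fold changes of -0.405, -0.387 and -0.393. For IER5 they were RPL19 (0.017), NDUFB2 (0.019) and RPS13 (0.019), 2 ribosomal protein genes and a subunit of respiratory complex I, with log2 fold changes from -0.042 to -0.012. IER2 stood at rank 2442 from NR4A1 and at 6142 from IER5. Like EGR1 and EGR2, the members NR4A2 and IER3 had too low a mean to be ranked. RPL19 and RPS13 have close copies in the genome, so their counts are uncertain.

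Other immediate-early genes moved both ways. A list of 55 such genes, kept apart from the 9 members, was chosen with earlier results of these data known, and 49 were tested. Of these, 18 rose (36.7%), 13 fell (26.5%) and 18 did not pass, where 20.1% of all tested genes rose and 18.9% fell. The median log2 fold change was 0.056. The large changes were all falls: 4 of the 49 were called and at least 2-fold lower and 0 at least 2-fold higher, where 2.11% and 1.06% of all tested genes were. FOSB, a partner of JUN in the AP-1 factor, had raw counts of 454, 321 and 265 in shLuc and 36, 26 and 24 in shKDM6B (log2 fold change -3.65, SE 0.27, adjusted p = 5.49e-10 by edgeR). FOS, its close relative, had raw counts of 1112, 1015 and 976 against 213, 112 and 114 (log2 fold change -2.88, SE 0.16, adjusted p = 8.49e-12). As for EGR1 and EGR2, shLuc replicate 1 held the highest CPM of both, and so did shKDM6B replicate 1.

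PHLDA1, a regulator of cell death, fell from raw counts of 1093, 1269 and 1316 to 489, 580 and 624 (log2 fold change -1.17, SE 0.048). RGS1, which dampens G protein signalling in B cells, fell from 161 ± 20 to 87.3 ± 6.9 CPM (SD, n = 3 each). The transcription factor KLF2 (log2 fold change 0.88) and the phosphatase DUSP5 (0.72) rose. EGR1, EGR2, FOS and FOSB, the 4 lowest of the 56 immediate-early genes tested, lay apart from the next lowest, DUSP1 (-1.35, chosen after its value was seen).

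**Figure D4:**
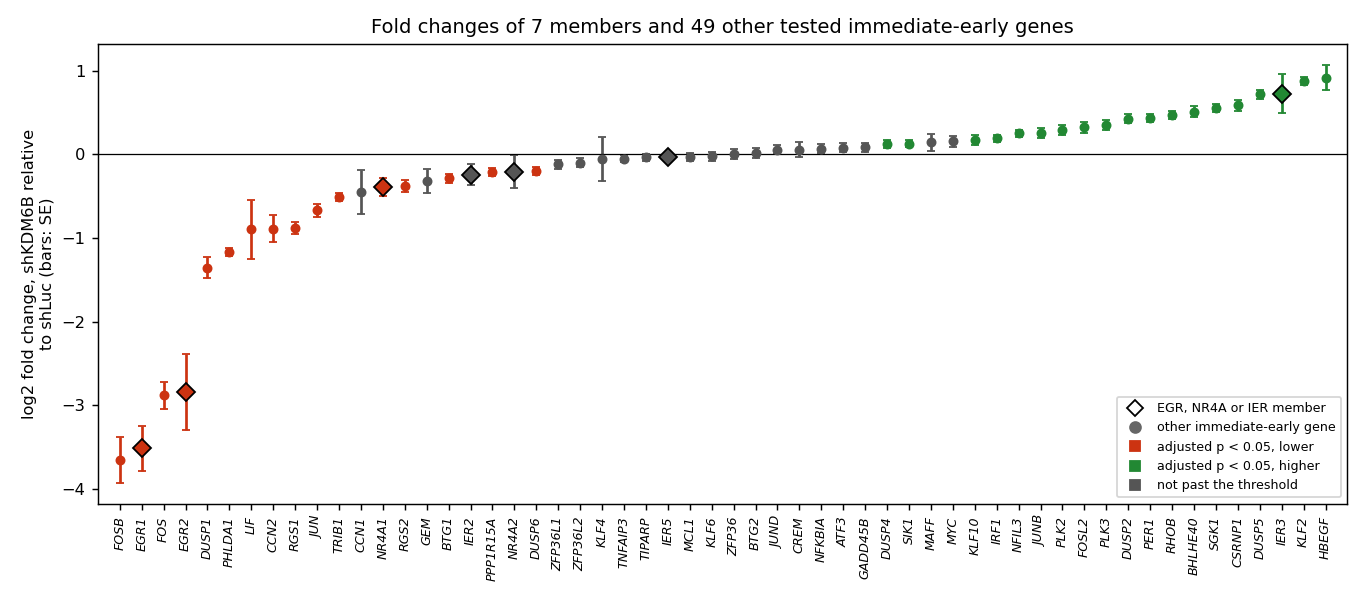
Log2 fold change (vertical axis, bars: SE) of the 7 tested members (diamonds) and the other 49 tested immediate-early genes (circles), ranked from left to right and coloured by call. FOSB, EGR1, FOS and EGR2 stand apart at -3.65 to -2.84, the next gene, DUSP1, lies at -1.35, and the rises reach 0.92 (HBEGF).

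Of the other immediate-early genes tested, 39 had a promoter in the table, and 0 of them held a CArG box in this 300-base window; 4 of these 39 (10.3%) were called and at least 2-fold lower. Over all tested genes with a promoter, 140 held a CArG box, and 9 of them (6.43%, EGR1 and EGR2 included) were called and at least 2-fold lower, beside 1.93% of the 9154 without one. Called lower at any size were 24.3% of the 140 and 19.8% of those without a box, and called higher were 29.3% of the 140, beside 22.1% of all 9294 tested genes with a promoter. Boxes more than 250 bases before a start were not searched. The shares of the 140 hold EGR1 and EGR2, which passed the filter on low counts through their shLuc libraries alone. These shares are therefore given as a description and carry no test of the box.

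Genes that act upstream of the members or bind their products changed by smaller amounts. Of 19 upstream regulators, all tested, 4 rose (21.05%), 7 fell (36.8%) and 8 did not pass, where 20.1% of all tested genes rose and 18.9% fell. Their median log2 fold change was -0.039. ELK1, the ternary complex factor, had 97.1 ± 4.4 CPM in shLuc and 67.8 ± 2.1 CPM in shKDM6B (SD, n = 3 each; log2 fold change -0.52, adjusted p = 1.85e-08 by edgeR). Its relative ELK4 (-0.38) fell too. SRF, named after its value was seen, went from 152 to 126 CPM (log2 fold change -0.27, adjusted p = 0.000143). The kinases RPS6KA4 (0.57) and RPS6KA3 (0.43), which act on CREB and chromatin, and the CREB coactivator CRTC3 (0.59) rose. No member of this list changed by as much as 2-fold.

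Of 7 partners, 6 were tested, of which 2 rose, 2 fell and 2 did not pass, where 20.1% of all tested genes rose and 18.9% fell. The EGR corepressors NAB1 and NAB2 went opposite ways. NAB2, itself a known EGR target, rose from raw counts of 80, 95 and 82 to 131, 123 and 148 (log2 fold change 0.59, SE 0.12, adjusted p = 0.000318 by edgeR). NAB1 fell (log2 fold change -0.19, SE 0.061, adjusted p = 0.0162 by edgeR). This call was lost by DESeq2 (adjusted p = 0.163), without shLuc replicate 3 (adjusted p = 0.0546) or shKDM6B replicate 2 (adjusted p = 0.107), and when thinly covered genes set the scaling (adjusted p = 0.121). Without the 3 keratin libraries the log2 fold change of NAB1 was -0.187. RXRA, a receptor that pairs with NR4A1 and NR4A2, rose (0.23), a call that DESeq2 did not make (adjusted p = 0.104), and PPP2R2A, a phosphatase subunit that binds IER proteins, fell (-0.28). HSF1, the factor regulated by IER5, had a log2 fold change of -0.026. Upstream regulators and partners together gave 6 higher and 9 lower calls, and 7 higher and 6 lower when thinly covered genes set the scaling.

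**Figure D5:**
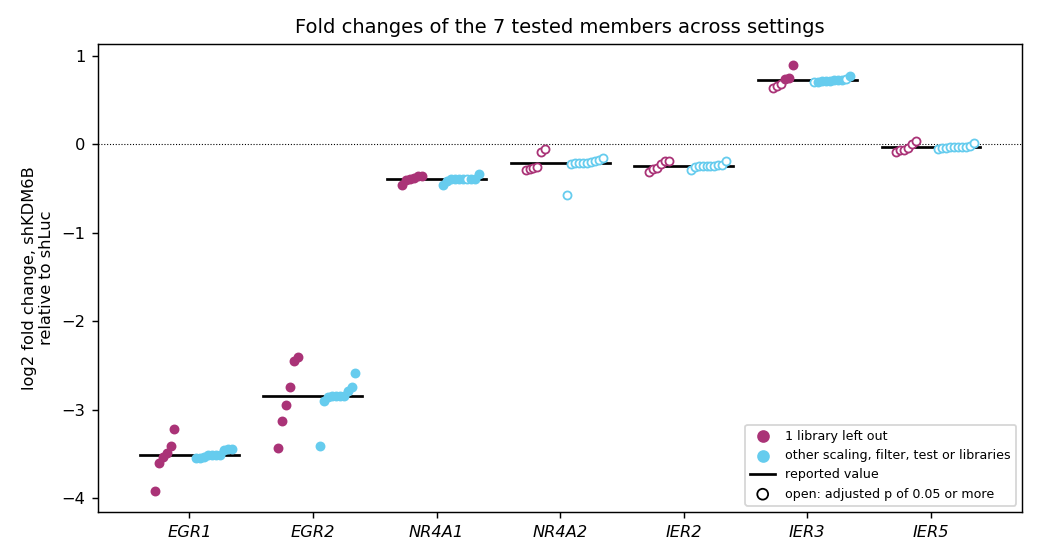
Log2 fold change of the 7 tested members (vertical axis) in the reported fit (black bars) and in 16 alternatives, with filled points at an adjusted p under 0.05 and open points otherwise. EGR1 and EGR2 are filled throughout, NR4A1 is open in 1 alternative, IER3 in 5, and NR4A2, IER2 and IER5 are open in all.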

How the data were processed

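RNA from 3 shLuc and 3 shKDM6B libraries of MM.1S cells was sequenced. Each library has its own deposited file of raw counts. The authors also deposited normalized values for all 6, a linear signal found to be the counts over a single factor for each library (largest difference 7.13e-07 counts over 56609 matched symbols). STAR, featureCounts, DESeq and the build GRCh37 (hg19) are named per the submitters' processing notes. Versions, annotation, strand setting and handling of multi-mapping reads: not given in the sources used here. Of each count file 56637 symbols were used, without 1 line whose name reads as a date.

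Raw counts were tested over the whole table with edgeR 4.0.16 in R 4.3.3: filterByExpr, TMM scaling and the quasi-likelihood test with the group as the single term. The Benjamini-Hochberg adjustment covered all 13839 genes tested, with a threshold of 0.05. SEs are those implied by the quasi-likelihood statistic and 95% intervals use them with normal quantiles. The fit was tested on simulated data. Over genes with under 0.03 counts per base, replicate pairs differed beyond counting noise (chi-square per degree of freedom 1.08 to 1.34). Each library counted as 1 sample. These values cannot show whether the triplicates were separate cultures, since technical differences can also exceed counting noise.

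Alternatives were DESeq2 1.42.0 (size factors, and its Wald test), upper-quartile scaling, 2 other filters and a block for the replicate number. Others were each library left out in turn and limma 3.58.1 (voom on counts, and trend on log2 of the normalized values plus 1). Added after the data were seen were a fit without the 3 keratin-bearing libraries and scaling from 3218 genes with under 0.03 counts per base. These make 16 alternatives, and a threshold of 0.01 on the reported fit is counted apart from them. Members and lists were chosen with earlier results of these data known. By rule, all 9 members, up to 6 called genes of each list with the smallest p, and the 3 nearest genes in profile were named, except a few items that are not reported here; up to 5 other genes are marked as chosen later or given as a check. Exon lengths came from GENCODE 29 (GRCh38), another build than the counts. Promoters of 6 members were searched, not those of EGR3, NR4A2 and IER3.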

Additional observations from a re-analysis of the deposited data

How the results depend on the processing

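EGR1 and EGR2 kept their direction in all 16 alternatives and passed in those with more than 1 library in each group. Leaving out 1 library gave log2 fold changes of -3.92 to -3.21 for EGR1 and -3.44 to -2.40 for EGR2. NR4A1 missed the threshold by DESeq2 (-0.389), and without 1 library ranged from -0.463 to -0.355. IER3 missed it by DESeq2 (0.735) and at a threshold of 0.01 (0.725), and without 1 library ranged from 0.636 to 0.895. The cause was not tested. Without the 3 keratin libraries the log2 fold change of IER3 was 0.702. The count of members that rose was 0 by DESeq2 and at a threshold of 0.01 (0 to 1 without 1 library). IER5 turned positive when thinly covered genes set the scaling (0.019), and ranged from -0.091 to 0.041 without 1 library. RPL19, NDUFB2 and RPS13 turned positive under the same scaling (0.042, 0.012 and 0.015), without shLuc replicate 1 (0.062, 0.018 and 0.038) and without shKDM6B replicate 3 (0.035, 0.008 and 0.009), and were lowest without shLuc replicate 3 (-0.062, -0.102 and -0.087). Over all genes DESeq2 called 1808 higher and 1586 lower. Lower upstream regulators and partners numbered 5 without the keratin libraries. With the replicate number as a block, 3166 genes were higher and 3052 lower, and among the members 1 was higher and 3 lower, as without it. Deviations of same-numbered libraries from their group means had correlations of 0.116, -0.077 and 0.152. Those of libraries with unlike numbers lay between -0.179 and 0.066. Whether same-numbered libraries share more than a number was not tested. Counts of 2 to 37 behind EGR2, and 19 for EGR1 in shKDM6B, limit the size of their changes.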
